A study of Mus musculus with 12 samples.

Results

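The genes described here carry inorganic phosphate across cell membranes or regulate that transport, and they were followed from mouse kidney tissue into cultured tubular progenitor cells and the organoids grown from them. The set is a list of 8 genes chosen by their function, with earlier results of these data known: the sodium-phosphate cotransporters Slc34a1, Slc34a2, Slc34a3, Slc20a1 and Slc20a2, the scaffold gene Pdzk1, and the hormone receptors Pth1r and Vdr. They were read by 12 of the 34945 probe sets that name 1 gene on the 3' expression array, and all 8 were among the 12992 of 18193 genes tested. The 12 arrays were in 6 groups of 2, each made of total RNA: cortex tissue, medulla tissue, progenitor cells derived from cortex, progenitor cells derived from medulla, organoids of cortex origin and organoids of medulla origin. Progenitor cells were grown on feeder fibroblasts, and organoids were differentiated in 3D Matrigel, a basement membrane gel. The series title calls the progenitors adult, and the labels give no strain, sex, age, passage number, culture time or genetic change for any group, and do not say whether feeder cells were removed before RNA was taken. The labels call the 2 arrays of a group biological replicates, without saying whether they came from separate animals or cultures, so p-values measure the spread between these samples, some of which may be technical.

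Phosphate filtered by the kidney is taken back mainly in the proximal tubule, where cotransporters of the Slc34 family in the apical brush border bring it into the cell together with sodium. The scaffold protein Pdzk1 binds their cytoplasmic ends, and parathyroid hormone, acting through its receptor Pth1r, lowers reabsorption by removing the cotransporters from the membrane. The bone hormone FGF23, which needs the co-receptor klotho, also lowers reabsorption, while calcitriol, the active form of vitamin D, acts through the nuclear receptor Vdr.

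Stretches before the start sites of the 3 Slc34 genes are shown because these genes encode the same kind of carrier. Slc34a2 followed another course over the stages than Slc34a1 and Slc34a3. The RefSeq promoter table (GRCm38.p6) held 7 of the 8 genes, in 11 windows of 300 bases that run from 250 bases before a start to 50 after it. The stretches lie at chr13:55399398-55399621 on the plus strand for Slc34a1, at chr5:53049103-53049352 on the plus strand for Slc34a2, and at chr2:25234271-25234484 on the minus strand for Slc34a3. Each stretch begins 250 bases before the start. That of Slc34a2 runs up to the start, whereas those of Slc34a1 and Slc34a3 end before it, after 224 and 214 bases. Capitals mark matches to GTTAAT, a short site of the HNF1 factors that act in kidney and liver epithelium, on either strand.
Slc34a1: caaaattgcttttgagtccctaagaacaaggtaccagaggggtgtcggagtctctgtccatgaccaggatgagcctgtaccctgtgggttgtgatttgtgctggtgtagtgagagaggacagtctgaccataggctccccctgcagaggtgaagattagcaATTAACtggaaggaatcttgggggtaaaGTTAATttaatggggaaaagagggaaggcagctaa
Slc34a2: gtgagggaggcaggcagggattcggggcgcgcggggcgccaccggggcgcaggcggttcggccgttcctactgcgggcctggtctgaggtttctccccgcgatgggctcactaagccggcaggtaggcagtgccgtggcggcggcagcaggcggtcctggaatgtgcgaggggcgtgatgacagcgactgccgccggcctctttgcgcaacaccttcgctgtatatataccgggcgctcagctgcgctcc
Slc34a3: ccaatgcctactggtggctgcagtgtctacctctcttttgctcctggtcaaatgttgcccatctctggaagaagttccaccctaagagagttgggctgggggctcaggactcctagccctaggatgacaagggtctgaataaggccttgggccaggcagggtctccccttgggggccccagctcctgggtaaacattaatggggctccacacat
The Slc34a1 window held GTTAAT at 89 and 61 bases before the start, and 7.1% of all 32851 promoter windows held this motif at least once. None of the other 10 windows held it. The nuclear receptor motif AGGTCA, present in 16.3% of all windows, was found at 33 and 6 bases before the Slc34a3 start, outside the printed stretch. AGGTCA was also found in both Slc20a1 windows and in 1 of the Pdzk1 windows, and in no window of Slc34a2, Pth1r or Vdr. The E-box CACGTG, present in 7.15% of windows, was found in 1 Slc20a1 window, where 1 of its matches overlapped AGGTCA, and TATAAA, present in 13.6%, in 1 window each of Slc34a1 and Slc20a1. The Slc34a2 window was richer in G and C, at 68.7% with 30 CpG pairs, than those of Slc34a3, at 57.7% with 2 CpG pairs, and Slc34a1, at 46.7% with 2 CpG pairs. Over all windows the medians were 52.67% and 7 CpG pairs. A match describes letters and does not show that a factor binds there.

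Signals are given on the deposited log2 scale, on which the median of an array lay between 5.86 and 6.53. Differences were computed on log2(signal + 15.2), where 15.2 is the 25th percentile of all signals, so a difference understates the change of a gene whose signal is near that offset. Tests were limma's, with p-values adjusted over all 12992 genes by the Benjamini-Hochberg method and a threshold of 0.05, and errors are standard errors. The 10 proximal tubule markers checked were above the array median in both kinds of tissue, with a mean log2 signal of 12.91 to 12.95 in cortex and 12.31 to 12.83 in medulla, so the tissue labelled medulla also carried proximal tubule RNA. Their means were 3.45 to 4.51 in progenitor cells and 4.14 to 5.86 in organoids, where 1 to 3 and 2 to 3 of the 10 were above the median. Their part in the results below was not tested. In all cultures Lrp2, the endocytic receptor megalin, was below the array median, whereas the glucose carrier Slc5a2 reached 8.62 to 10.06 in organoids. All 6 general renal epithelial markers were above the array median in every group. Replicates correlated at r = 0.945 to 0.990, the lowest in medulla organoids. The poly-A control RNAs that the labelling starts with read, as the median of their log2 signals, 7.96 to 8.83 on tissue arrays, 7.03 to 7.37 on progenitor arrays and 1.21 to 1.88 on organoid arrays. The log2 ratio of 3' to 5' probe sets, which bears on RNA integrity, was 0.87 to 1.67 for Gapdh on organoid arrays, -0.23 to 0.18 on tissue arrays and -0.41 to -0.30 on progenitor arrays. For actin it was 0.94 to 1.63 on tissue arrays and at most 0.19 on culture arrays. A stage and the way its RNA was prepared and labelled cannot be told apart, which holds for every stage difference below. In bulk RNA, fewer cells of a type and less RNA per cell also cannot be told apart.

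**Figure D1:**
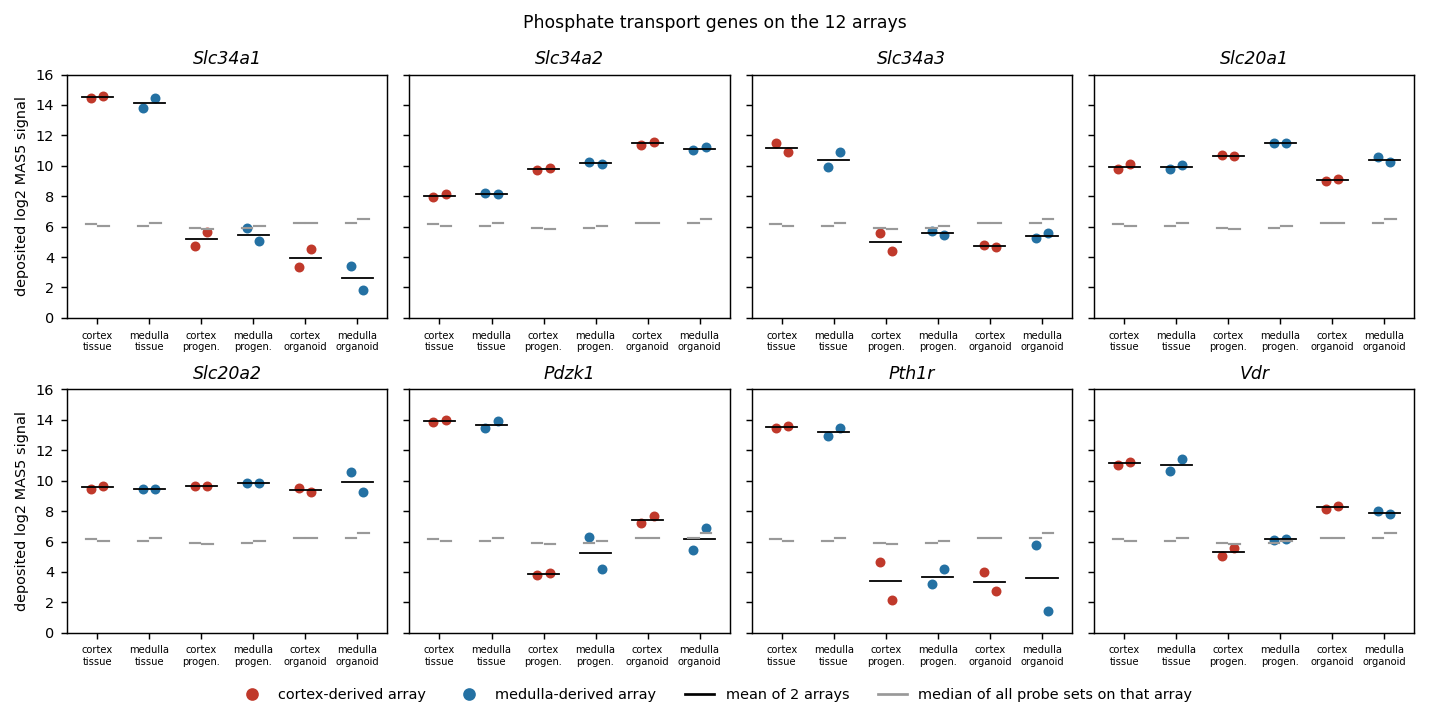
Deposited log2 signal of the representative probe set of each of the 8 genes on each of the 12 arrays, in 1 panel a gene, with arrays grouped by stage and region. Slc34a1, Slc34a3, Pdzk1 and Pth1r are far higher in tissue than in either culture, Slc34a2 is highest in organoids, and Vdr is lowest in progenitor cells.

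The main renal cotransporter genes were far lower in both cultures than in tissue. Slc34a1, which encodes NaPi-IIa, the main phosphate carrier of the proximal tubule brush border, read 14.48 and 14.59 in cortex tissue and 13.82 and 14.43 in medulla tissue. It read 4.71 and 5.65 in cortex progenitor cells, 5.90 and 5.03 in medulla progenitor cells, 3.37 and 4.56 in cortex organoids, and 3.43 and 1.84 in medulla organoids. All 8 culture arrays were below their array medians, and none overlapped with tissue. Slc34a1 was lower in progenitor cells than in tissue by a log2 difference of -8.53 ± 0.24 (adjusted p = 2.84e-11) and lower in organoids than in tissue by -9.61 ± 0.24 (adjusted p = 1.57e-11). The organoid level was also below the progenitor level, by -1.08 ± 0.24 (adjusted p = 0.00155), although both lay in the dim range of the array. That value moved to -1.89 with an offset of 1 and to -0.45 with an offset at the median signal, and it passed the threshold with each. By region it was -1.44 ± 0.34 in medulla cultures (adjusted p = 0.00312) and -0.73 ± 0.34 in cortex cultures (adjusted p = 0.0842). Only the medulla value passed the threshold, and the difference between the regions did not (-0.72 ± 0.48, adjusted p = 0.461).

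Slc34a3 encodes NaPi-IIc, the other Slc34 carrier of the proximal tubule. It read 11.51 and 10.89 in cortex tissue and 9.90 and 10.88 in medulla tissue. In culture it read 5.57 and 4.43 in cortex progenitor cells, 5.75 and 5.48 in medulla progenitor cells, 4.77 and 4.64 in cortex organoids, and 5.25 and 5.57 in medulla organoids. Every culture array was again below its array median. The log2 difference from tissue was -5.01 ± 0.27 in progenitor cells (adjusted p = 5.96e-09) and -5.20 ± 0.27 in organoids (adjusted p = 3.96e-09). Between organoids and progenitor cells it was -0.19 (95% interval -0.77 to 0.40; adjusted p = 0.548), so no difference was detectable there.

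Slc34a2 went the other way. It encodes NaPi-IIb, the Slc34 carrier best known from lung and small intestine. It read 7.93 and 8.16 in cortex tissue, 8.19 and 8.15 in medulla tissue, 9.71 and 9.89 in cortex progenitor cells, and 10.24 and 10.12 in medulla progenitor cells. It read 11.39 and 11.55 in cortex organoids and 11.03 and 11.23 in medulla organoids. The stages did not overlap, and the arrays of a group differed by at most 0.23. Slc34a2 was 3.54-fold higher in progenitor cells than in tissue (log2 difference 1.82 ± 0.11; adjusted p = 1.67e-08) and 2.46-fold higher in organoids than in progenitor cells (1.30 ± 0.11; adjusted p = 5.40e-07). From tissue to organoids the difference was 8.70-fold (3.12 ± 0.11; adjusted p = 1.66e-10). In the order of its 6 group levels, the steps between stages passed the threshold, and those between cortex and medulla within a stage did not.

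The Slc20 genes encode PiT-1 and PiT-2, phosphate carriers present in most cell types. The representative probe set of Slc20a1 read 9.80 and 10.10 in cortex tissue and 9.82 and 10.03 in medulla tissue. It read 10.71 and 10.62 in cortex progenitor cells, 11.47 and 11.50 in medulla progenitor cells, 8.98 and 9.14 in cortex organoids, and 10.58 and 10.23 in medulla organoids. Progenitor cells were highest, and cortex organoids were lowest. The summed signal of 9 fibroblast markers lay at 3832 to 8413 in tissue and 10333 to 14474 in progenitor cultures. It lay at 2118 to 2679 in cortex organoids and 8545 to 8654 in medulla organoids. A sum weighs the brightest markers most. Their mean log2 signal was 7.94 to 8.97 in tissue and 8.89 to 9.14 in progenitor cultures. In cortex and medulla organoids it was 5.75 to 6.80 and 8.76 to 8.82. Against tissue 5 were higher and 3 lower in progenitor cultures, beside 36.9% and 35.8% of all genes. In organoids 3 were higher and 6 lower, beside 33.1% and 46.5%. The part of these markers in the Slc20a1 differences was not tested. Slc20a1 was 2.18-fold higher in progenitor cells than in tissue (log2 difference 1.13 ± 0.11; adjusted p = 2.22e-06) and lower in organoids than in progenitor cells by -1.33 ± 0.11 (adjusted p = 6.47e-07). Organoids and tissue overlapped, with a difference of -0.20 (95% interval -0.45 to 0.05; adjusted p = 0.126). That pooled value joined opposite ones: -0.87 ± 0.16 in cortex (adjusted p = 4.22e-04) and 0.47 ± 0.16 in medulla (adjusted p = 0.0205). It also passed the threshold as lower after scaling to the 75th percentile of each array, at -0.43 (adjusted p = 0.00651), a scaling that moved the median of all genes in this comparison from -0.28 to -0.50, and after quantile normalization, at -0.38 (adjusted p = 0.0121). With all Slc20a1 probe sets averaged it was higher, at 0.76 (adjusted p = 0.00564), and the call between organoids and progenitor cells was lost, at -0.20 (adjusted p = 0.407).

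Slc20a2 was the only one of the 8 genes whose representative probe set passed the threshold in no stage comparison. It read 9.49 and 9.63 in cortex tissue, 9.45 and 9.47 in medulla tissue, 9.67 and 9.64 in cortex progenitor cells, and 9.85 and 9.84 in medulla progenitor cells. It read 9.55 and 9.28 in cortex organoids, and 10.59 and 9.23 in medulla organoids. The first medulla organoid array was the highest of all 12 and the second was the lowest. The log2 difference was 0.23 between progenitor cells and tissue (95% interval -0.25 to 0.72, adjusted p = 0.359). It was -0.08 between organoids and progenitor cells (95% interval -0.57 to 0.40, adjusted p = 0.752). Between organoids and tissue it was 0.15 (95% interval -0.33 to 0.64, adjusted p = 0.537). The organoid to progenitor difference followed those 2 arrays: it was -0.42 (adjusted p = 0.00315) without the first medulla organoid array and 0.25 (adjusted p = 0.0397) without the second.

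The probe sets of the Slc20 genes did not give 1 answer. The other probe set of Slc20a2, 1451768_a_at, read 7.64 to 8.39 in tissue, 8.92 to 9.41 in progenitor cells and 9.39 to 10.23 in organoids. It was dimmer than the representative one in tissue and progenitor cells. By group mean it was brighter in organoids, at 9.56 beside 9.42 for cortex origin and 10.20 beside 9.91 for medulla origin. In a fit over all 45037 probe sets it was higher in progenitor cells than in tissue (log2 difference 0.98 ± 0.18, adjusted p = 4.40e-04). Organoids were higher than progenitor cells (0.78 ± 0.18, adjusted p = 0.00215), although those arrays overlapped. They were also higher than tissue (1.76 ± 0.18, adjusted p = 1.54e-06), without overlap. Averaging the Slc20a2 probe sets gave 0.61 (adjusted p = 0.00326) for progenitor cells against tissue. For organoids against tissue the average gave 0.96 (adjusted p = 1.03e-04). The representative probe set, 1434235_at, had not passed in any of these comparisons. Its difference of 0.23 between progenitor cells and tissue, whose arrays did not overlap, passed when only those groups were fitted (adjusted p = 0.0189) and without either medulla organoid array (adjusted p = 0.0361 and 0.0328). For Slc20a1, probe set 1438824_at was also higher in progenitor cells than in tissue, by 1.41 ± 0.40 (adjusted p = 0.0110), but it was higher in organoids than in tissue too, by 1.64 ± 0.40 (adjusted p = 0.00310). All 4 of its tissue arrays were below the array median. The last Slc20a1 probe set, 1446441_at, passed in none of the stage comparisons, with an adjusted p of 0.0505 for organoids against tissue. Which transcripts each probe set reads was not examined.

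**Figure D2:**
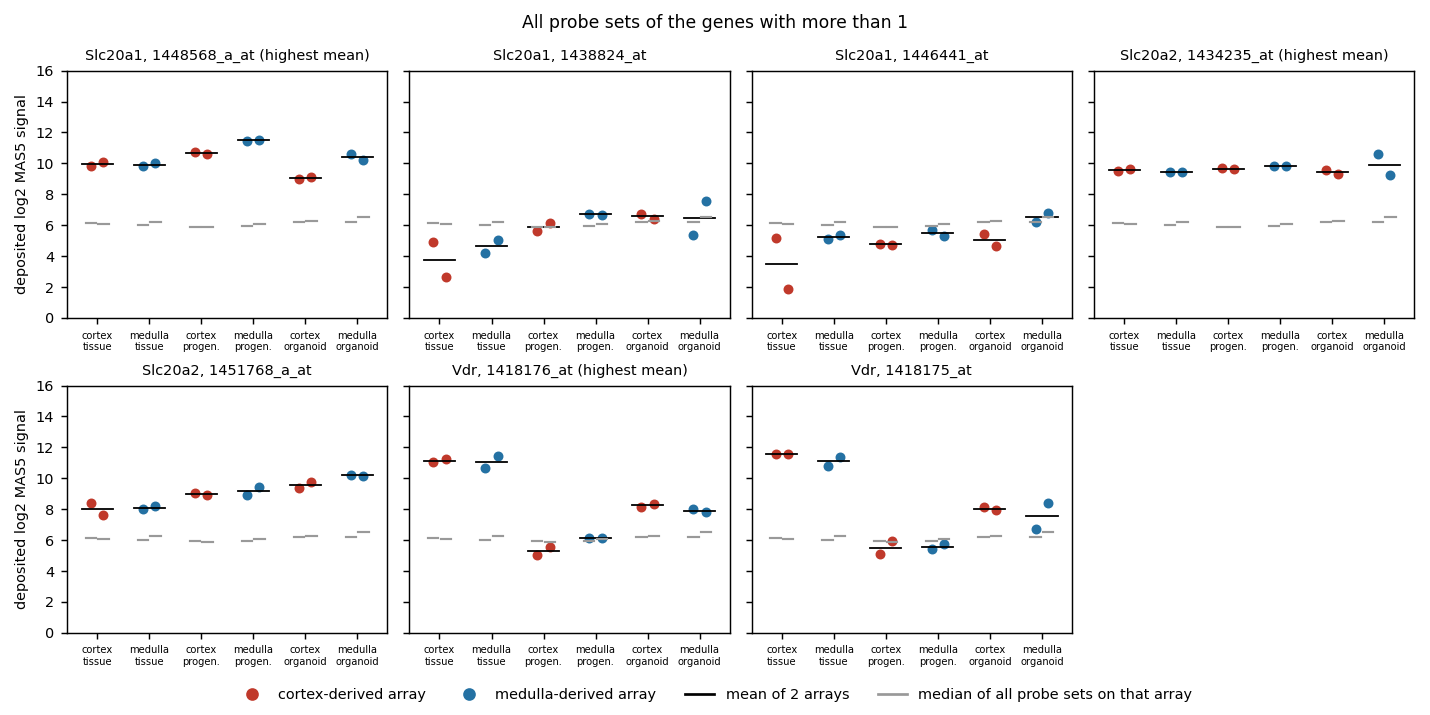
Log2 signal of each probe set on the 12 arrays for Slc20a1, Slc20a2 and Vdr, the genes read by more than 1 probe set. The Vdr probe sets run together, and the dimmer Slc20a1 probe sets lie near the array median or below it. The representative Slc20a2 probe set has its highest and lowest arrays in medulla organoids, while the other is higher in organoids than in tissue.

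Pdzk1, the scaffold gene, was among the brighter genes of tissue and dim in progenitor cells, and it was higher again in organoids. It read 13.89 and 14.01 in cortex tissue and 13.46 and 13.90 in medulla tissue. It read 3.82 and 3.93 in cortex progenitor cells, 6.30 and 4.19 in medulla progenitor cells, 7.21 and 7.65 in cortex organoids, and 5.44 and 6.90 in medulla organoids. Progenitor and organoid arrays overlapped in the medulla-derived cultures but not in the cortex-derived ones. Pdzk1 was lower in progenitor cells than in tissue by -8.46 ± 0.32 (adjusted p = 2.87e-10) and lower in organoids than in tissue by -6.80 ± 0.32 (adjusted p = 1.70e-09). It was higher in organoids than in progenitor cells by 1.66 ± 0.32 (adjusted p = 5.19e-04), a value that was 0.94 with an offset at the median signal. By region this was 2.66 ± 0.45 in cortex cultures (adjusted p = 3.04e-04) and 0.66 ± 0.45 in medulla cultures (adjusted p = 0.219), and the difference between the regions was not past the threshold, at -1.99 ± 0.64 (adjusted p = 0.106). It was past it without the second medulla progenitor array (-2.74; adjusted p = 0.0448) and without the second medulla organoid array (-2.60; adjusted p = 0.0103).

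The receptor genes took different courses. Pth1r, the receptor for parathyroid hormone, read 13.45 and 13.59 in cortex tissue and 12.94 and 13.46 in medulla tissue. It read 4.65 and 2.19 in cortex progenitor cells, 3.21 and 4.17 in medulla progenitor cells, 3.97 and 2.75 in cortex organoids, and 5.77 and 1.41 in medulla organoids. All culture arrays were below their array medians and spread widely. The log2 difference from tissue was -8.54 ± 0.38 in progenitor cells (adjusted p = 1.23e-09) and -8.44 ± 0.38 in organoids (adjusted p = 1.29e-09). Organoids and progenitor cells differed by 0.10 (95% interval -0.74 to 0.93; adjusted p = 0.830).

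Vdr, the calcitriol receptor, was the hormone receptor gene that was higher in organoids than in progenitor cells. It read 11.07 and 11.23 in cortex tissue, 10.66 and 11.45 in medulla tissue, 5.05 and 5.55 in cortex progenitor cells, and 6.14 and 6.14 in medulla progenitor cells. It read 8.16 and 8.37 in cortex organoids and 8.01 and 7.79 in medulla organoids. The 3 stages did not overlap, and all 4 organoid arrays were above the array median, beside 2 of 4 progenitor arrays. Vdr was lower in progenitor cells than in tissue by -5.02 ± 0.19 (adjusted p = 3.08e-10), higher in organoids than in progenitor cells by 2.07 ± 0.19 (adjusted p = 1.18e-06), and lower in organoids than in tissue by -2.95 ± 0.19 (adjusted p = 2.94e-08). Its other probe set gave -5.39 ± 0.29, 1.95 ± 0.29 and -3.44 ± 0.29 for the same comparisons, all past the threshold.

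**Figure D3:**
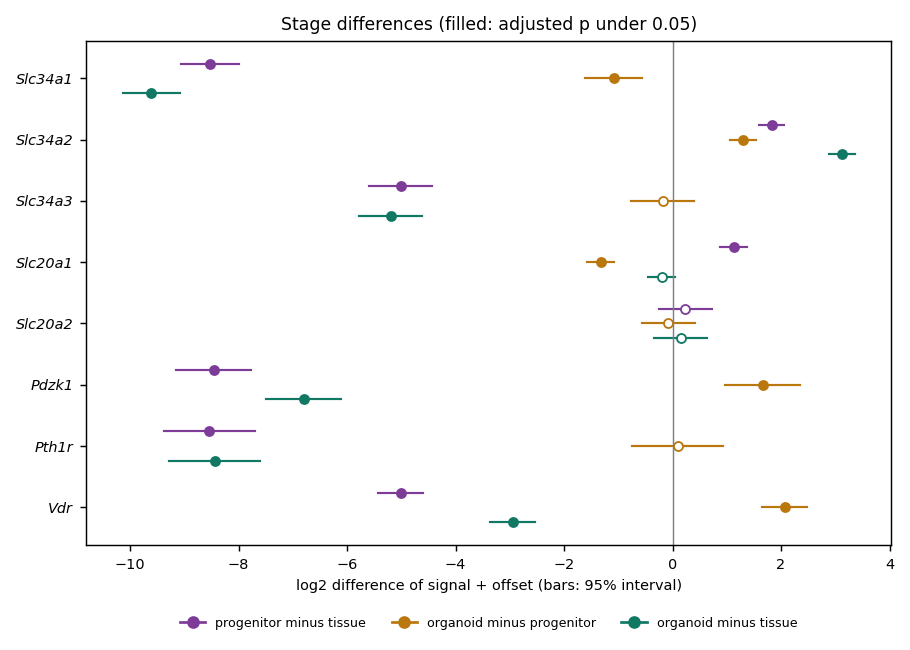
Log2 difference of signal + offset between stages for the 8 genes, with 95% intervals as bars and filled points where the adjusted p was under 0.05. Slc34a1, Slc34a3, Pdzk1 and Pth1r lie far below 0 against tissue, Slc34a2 lies above 0 in all 3 comparisons, and Slc20a2 crosses 0 in each.

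By count, 7 of the 8 genes passed the threshold between progenitor cells and tissue, 2 higher and 5 lower, where 72.7% of all genes tested passed, 36.9% higher and 35.8% lower. The median log2 difference was -5.02 over the 8 genes and 0.03 over all genes. Between organoids and progenitor cells 5 of the 8 passed, 3 higher and 2 lower, beside 72.3% of all genes, 28% higher and 44.3% lower, and the medians were 0.01 and -0.29. Between organoids and tissue 6 of the 8 passed, 1 higher and 5 lower, beside 79.5% of all genes, 33.1% higher and 46.5% lower, and the medians were -4.07 and -0.28. Since the 8 genes were chosen with earlier results known, these counts and medians are a description only. These comparisons share arrays, so their values are given side by side without a measure of likeness.

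Region of origin was compared within each stage. In tissue none of the 8 genes passed limma's threshold, and none had an unadjusted p under 0.05. Of all 12992 genes 0.308% passed, and 1175 had an unadjusted p under 0.05. Slc34a3 had the largest tissue difference of the 8, at -0.81 ± 0.38 for medulla minus cortex (adjusted p = 0.574). It read 9.90 on the first medulla tissue array and 10.88 on the second, beside 11.51 and 10.89 in cortex. The log2 signals of the medulla tissue arrays also differed by 0.80 for Vdr, 0.62 for Slc34a1, 0.52 for Pth1r and 0.44 for Pdzk1. For Slc34a2, Slc20a1 and Slc20a2 they differed by at most 0.21. With that spread, the lack of a call in tissue does not show equal levels in cortex and medulla. In progenitor cells none of the 8 passed, and 3 had an unadjusted p under 0.05. Of all 12992 genes 0.316% passed, and 636 had an unadjusted p under 0.05. Slc20a1 was nearest, at 0.82 ± 0.16 (adjusted p = 0.0755). It passed when only the groups compared were fitted (adjusted p = 0.00837), with the larger offset (adjusted p = 0.0488), and without either medulla organoid array (adjusted p = 0.0119 and 0.0117), which leaves both sides of the comparison as they were.

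In organoids Slc20a1 was the 1 gene of 8 that passed, beside 18% of all genes, 7.95% in its direction. It was 2.50-fold higher in medulla organoids than in cortex organoids, a log2 difference of 1.32 ± 0.16 (adjusted p = 4.09e-04). The call was lost when only the groups compared were fitted (adjusted p = 0.0505) and when all Slc20a1 probe sets were averaged (0.81; adjusted p = 0.0903). The fibroblast marker sum given above was also higher in medulla organoids, where 8 of 9 markers were above the array median, beside 3 to 6 of 9 in cortex organoids. The mesenchymal receptor gene Pdgfra was below the array median in cortex organoids, at 2.89 to 5.40, and read 7.41 to 7.70 in medulla organoids, while the collagen gene Col1a1 was at 10.49 to 10.55 and 11.78 to 12.03. Without the second medulla organoid array 4 of the 8 genes passed, with Slc20a2 at 1.15, Pdzk1 at -1.69 and Pth1r at 1.42 added, and the share of all genes passing was 33.2%. That fit leaves 1 medulla organoid array, which is assumed to vary like the other groups.

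Whether a stage difference depended on the region was tested as an interaction. For progenitor cells against tissue none of the 8 genes passed limma's threshold, and 2 had an unadjusted p under 0.05. Of all 12992 genes 0.269% passed, and 931 had an unadjusted p under 0.05. For organoids against progenitor cells none passed, and 4 of the 8 had an unadjusted p under 0.05. Of all 12992 genes 4.09% passed, and 2569 had an unadjusted p under 0.05. Slc34a2 had the smallest adjusted p of the 8, with a difference of 1.65 in cortex and 0.94 in medulla cultures (interaction -0.71; adjusted p = 0.0946). Without the second medulla organoid array 4 of the 8 passed this test: Slc34a2, Slc20a1, Slc20a2 and Pdzk1. In that fit, with its lone medulla organoid array, 19.2% of all genes passed.

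**Figure D4:**
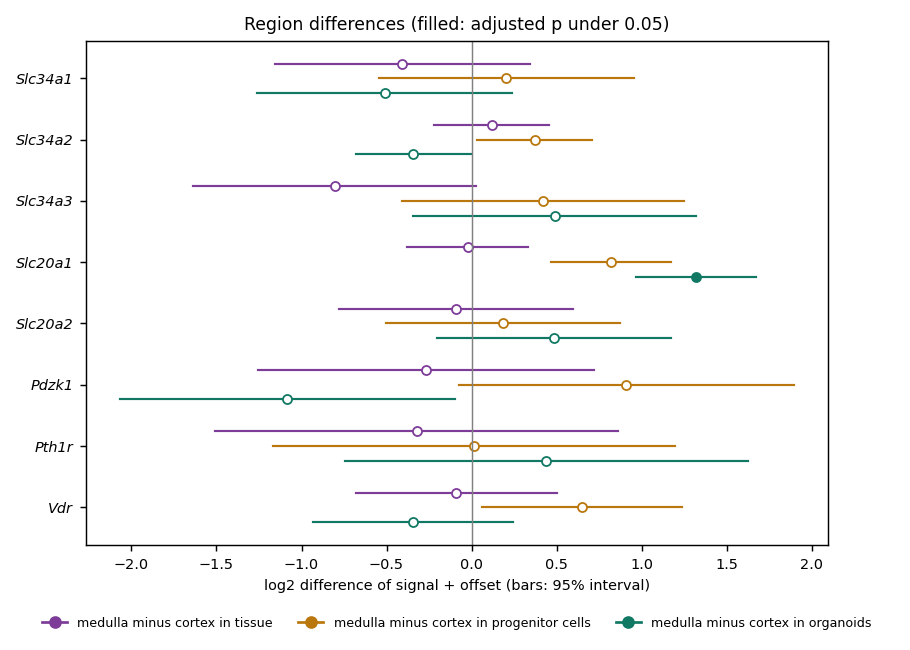
Log2 difference of signal + offset for medulla minus cortex in tissue, progenitor cells and organoids, with 95% intervals as bars and filled points where the adjusted p was under 0.05. Only Slc20a1 in organoids, at 1.32, is filled.

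Genes whose log2 signals ran most like each member over the 12 arrays are named as a description, since arrays of 1 stage lie together and any gene that differs between tissue and cultures gives a high r. For Slc34a1 these were Foxi1, Atp6v1b1 and Hpd, each at r = 0.998, and 796 of 12437 genes had r over 0.95. For Slc34a2 they were Csf1 and Zc3h12a at 0.992 and Ugcg at 0.989, and 316 genes had r over 0.95. Slc34a3 was most like B3gat2 (0.997), Pdzk1 most like Fbp2 (0.993), Pth1r most like Slc22a18 (0.997) and Vdr most like Ctsh (0.997). Slc20a1 had 1 gene over 0.95, Pdpn at 0.959, and Slc20a2 had none, with Elob the highest at 0.937.

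Around these genes, a list of 56 others from the same hormone and transport pathways was measured for 50 genes, of which 44 were tested. Between progenitor cells and tissue 9 were higher and 32 lower, with a median of -1.38, beside 36.9% higher, 35.8% lower and a median of 0.03 over all genes. Between organoids and progenitor cells 17 were higher and 16 lower, with a median of -0.20, beside 28%, 44.3% and -0.29 over all genes. Between organoids and tissue 6 were higher and 33 lower, with a median of -1.17, beside 33.1%, 46.5% and -0.28 over all genes. The same shares and medians of all genes stand beside the counts of each group below. The values below are log2 differences.

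The FGF23 and klotho group had 8 genes tested, of which 6 were lower and 1 higher in progenitor cells than in tissue. Kl, which encodes klotho, was lower by -8.06 ± 0.33 in progenitor cells and by -8.57 ± 0.33 in organoids. The receptor genes Fgfr3 and Fgfr4 were lower in progenitor cells by -3.63 ± 0.17 and -2.43 ± 0.32. Organoids were lower than progenitor cells for 5 of the 8 and higher for 2: Fgfr2 rose by 2.58 ± 0.13 and Fam20c, a kinase of secreted proteins that acts on FGF23, by 2.32 ± 0.13.

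Of 10 parathyroid hormone signalling genes, 4 were higher and 4 lower in progenitor cells than in tissue. The calcium-sensing receptor gene Casr was lower by -3.65 ± 0.24 and the phospholipase gene Plcb1 by -3.54 ± 0.23. Pth2r, the parathyroid hormone 2 receptor gene, exceeded tissue by 1.95 ± 0.36 in progenitor cells and by 3.10 ± 0.36 in organoids. Its tissue signal was 0.46 to 4.78, below every array median. In organoids against progenitor cells 2 were higher and 5 lower, with the kinase gene Prkca at 1.36 ± 0.17 and the adenylate cyclase gene Adcy6 at -1.33 ± 0.14.

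The vitamin D group was lower in progenitor cells for all 8 genes tested, with a median of -3.75, and 5 of the 8 were higher and none lower in organoids than in progenitor cells. The calcium-binding protein genes Calb1 and S100g, known targets of calcitriol, were lower in progenitor cells by -9.31 ± 0.17 and -8.77 ± 0.20. In organoids S100g was higher than in progenitor cells by 7.63 ± 0.20, the calcium channel gene Trpv6 by 4.81 ± 0.38 and Calb1 by 3.55 ± 0.17. Cyp24a1, the enzyme that degrades calcitriol and also a known target, was lower than in tissue by -6.34 ± 0.33 in progenitor cells and by -6.54 ± 0.33 in organoids. Trpv6 was above its tissue level in organoids, by 3.86 ± 0.38. Markers of other tubule segments moved too: all 5 loop of Henle and all 8 distal tubule and collecting duct markers were lower in progenitor cells than in tissue. In organoids against progenitor cells 3 of the 5 were higher and 2 lower, with a median of 3.42, and 4 of the 8 were higher and 1 lower, with a median of 0.75. Their part in the vitamin D group's differences was not tested.

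Among 8 scaffold and trafficking genes, 7 were lower and 1 higher in progenitor cells than in tissue, and all 8 were lower in organoids than in tissue. The sodium-proton exchanger gene Slc9a3 was lower by -6.63 ± 0.18 in progenitor cells and by -6.83 ± 0.18 in organoids, and Pdzd3, a PDZ scaffold related to Pdzk1, by -6.42 ± 0.30 and -6.00 ± 0.30. Slc9a3r1, which encodes the scaffold NHERF1 that binds Slc34a1 protein, was lower in organoids than in tissue by -1.78 ± 0.12.

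Of 10 other phosphate carriers and handling genes, 7 were lower and 3 higher in progenitor cells, and 8 lower and 2 higher in organoids, than in tissue. Slc17a1 and Slc17a3, of a family first described as sodium-phosphate carriers and now known for organic anions, were lower in progenitor cells by -7.99 ± 0.19 and -7.05 ± 0.16, and Slc17a1 was higher in organoids than in progenitor cells by 3.99 ± 0.19. Alpl, the alkaline phosphatase gene, was lower in progenitor cells by -7.25 ± 0.28 and higher in organoids than in progenitor cells by 1.81 ± 0.28. The stanniocalcin genes, whose hormones bear on calcium and phosphate, split: Stc2 was higher in organoids than in progenitor cells by 4.14 ± 0.25 and Stc1 was lower by -2.32 ± 0.19. All named values in these 5 groups had an adjusted p under 0.05 and arrays that did not overlap.

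**Figure D5:**
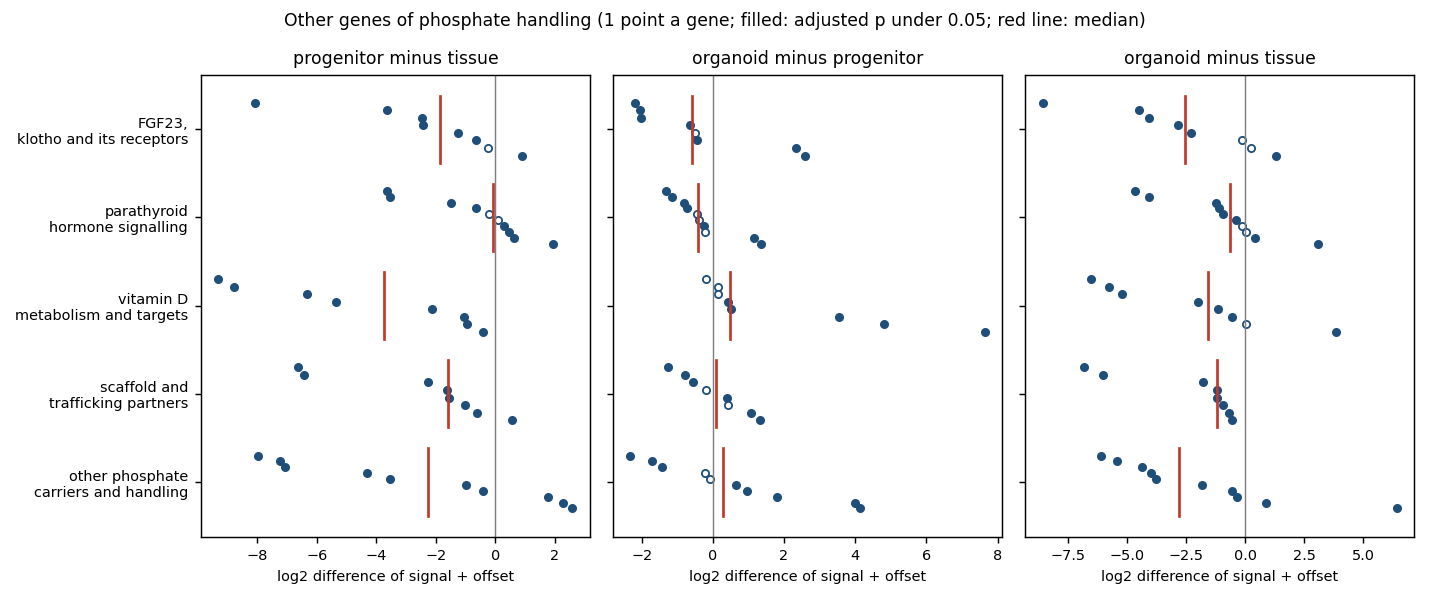
Log2 differences between stages for the tested genes of the 5 pathway groups, 1 point a gene. The vitamin D group lies below 0 for progenitor cells against tissue and 5 of its 8 genes are higher in organoids than in progenitor cells.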

How the data were processed

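Total RNA of 12 samples was amplified and biotin-labelled with a 3' in vitro transcription kit, per the labels' protocols. The authors deposited log2 values for 45101 probe sets, made with MAS5 per the submitters' processing notes; its version and settings are not given in the sources used here, and no detection calls were used. On each array the deposited signals, unlogged, had the same trimmed mean (2% off each end), so arrays were taken as scaled already and not normalized again. Values were unlogged, an offset of 15.2 (the 25th percentile of all signals) was added, and log2 was taken again.

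Probe sets were named through the platform annotation: 34945 had 1 gene symbol, 932 several and 9224 none, and 34741 symbols were matched to RefSeq by gene ID. The probe set with the highest mean stood for a gene, and a gene was tested where, in 1 or more groups, neither array had it under the array median, which left 12992. limma 3.58.1 in R 4.3.3 fitted 6 group means with a variance trend (6 residual degrees of freedom; median prior 5.69), two-sided, with Benjamini-Hochberg adjustment. All probe sets that are not controls (45037) were fitted the same way for the members' single probe sets. On simulated data for progenitor cells against tissue the fit found 69% of 1 log2 changes and 99% of 2 log2 changes, over 12992 genes with 200 changed. It found 35% and 84% for medulla against cortex tissue, and 20% and 60% for the region dependence of organoids against progenitor cells. Changes of these sizes were thus missed on those data. In the deposited data 72.7% of all genes passed for progenitor cells against tissue, far more than 200, so these rates may not hold there. Recovery for medulla against cortex organoids was not tested.

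Named genes were the 8 members, per comparison up to 4 pathway genes a group past the threshold with at least a 2-fold change and no overlap of arrays, and the 3 genes of highest correlation with each member. The members, pathway lists and markers were chosen with earlier results of these data known. Array number limits precision. Replicate numbers are in the labels, and whether they pair samples is not; over 15 pairs of groups the correlation of same-numbered deviations was -0.14 to 0.06, so no pairing was used. Alternatives covered the offset, scaling, filter, probe set choice, variance trend, groups fitted, replicate block and leaving out each array.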

Additional observations from a re-analysis of the deposited data

Results flagged for a closer look

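For 3 pathway genes the difference between organoids and progenitor cells depended on the region by limma's interaction test; 4.09% of all genes passed that test. Calb1 differed by 2.24 in cortex cultures and 4.86 in medulla cultures on the log2 scale, an interaction of 2.62 ± 0.34 (adjusted p = 0.00288). For Stc1 the regional differences were -3.80 and -0.84, an interaction of 2.96 ± 0.38 (adjusted p = 0.00288). For Fgfr2 they were 3.25 and 1.90, an interaction of -1.35 ± 0.25 (adjusted p = 0.0146). With all probe sets of a gene averaged none of these passed: Calb1 was at 1.89 (adjusted p = 0.0736), Stc1 at 1.79 (adjusted p = 0.0669) and Fgfr2 at -0.36 (adjusted p = 0.642).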

How the results depend on the processing

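Over 64 member values, 11 other settings and 12 fits without 1 array gave 1424 alternative values, of which 1397 kept their direction and side of the threshold or were uncalled in both; 3 lost the call, 22 gained it and 2 reversed. With all probe sets of a gene averaged, Slc20a1 for organoids minus tissue turned to 0.76 (adjusted p = 0.00564). Members past the threshold by region in organoids then fell from 1 to 0, while the share of all genes went from 18% to 13.8%. Pathway genes past the region dependence test for organoids minus progenitor cells went from 3 to 0, and the share of all genes from 4.09% to 3.02%. Slc20a2 for organoids minus progenitor cells went from -0.42 to 0.25 as either medulla organoid array was left out. By region in progenitor cells, 1 member passed with the median offset or with only the groups compared fitted, beside 0, and 1 pathway gene passed in the latter, beside 0. The shares of all genes in these fits were 0.485% and 1.15%, beside 0.316%. By region in organoids the fit of only the groups compared gave 0 members and 2 pathway genes, beside 1 and 9. There the share of all genes fell from 18% to 1.84%.

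Leaving out each array in turn gave 0 to 1 members and 0 to 1 pathway genes by region in progenitor cells, and 1 to 4 members and 2 to 19 pathway genes by region in organoids, where the share of all genes went from 8.15% to 33.2%. For the region dependence of organoids minus progenitor cells it gave 0 to 4 members and 2 to 11 pathway genes, and 0.931% to 19.2% of all genes. A group left with 1 array is assumed to vary like the others. The replicate block kept 7, 5 and 6 members past the threshold in the stage comparisons, beside 72.2%, 72% and 79.2% of all genes. It changed no member's call. Of 15 group pairs, 2 had a correlation under -0.1. Crossing the numbers, an alternative chosen after seeing the data, called 0 members by region in tissue and 0 in progenitor cells. The shares of all genes were 0.385% and 0.308% there. MAS5 signals of genes below the array median have little height over background, which limits Slc34a1, Slc34a3 and Pth1r in culture. It also limits Pdzk1 and Vdr in progenitor cells, where 1 and 2 of 4 arrays were above the array median. In organoids Pdzk1 was above it on 3 of 4 arrays.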

Other observations

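Of the pathway genes measured, 6 were below the brightness filter. The bone-derived phosphate regulators Fgf23, Phex, Dmp1 and Mepe and the hormone gene Pth were above the array median on 0 of 12 arrays, with highest log2 signals of 5.73, 3.76, 3.68, 4.88 and 4.52. Cyp27b1, which makes calcitriol, was above it on 3 of 12 arrays and read 3.63 to 6.41.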
